A study of Mus musculus with 1814 samples.

Results

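The genes described here encode the proteins of the cytosolic ribosome, measured in single germinal center B cells of mice. They were taken by symbol: Rpsa, Rplp0, Rplp1, Rplp2, and every symbol made of Rpl or Rps followed by a digit, leaving out pseudogene symbols with -ps and the Rps6k kinases. The rule found 93 of the 29076 genes in the deposited combined tables, 93 of 25125 in the table of experiments 1, 3 and 4, and 90 of 15177 in the table of experiment 5, which did not list Rpl3l, Rpl39l and Rpl10l. Of the 93, 77 are core proteins: 31 of the small subunit, 43 of the large subunit and 3 of its stalk. The other 16 are paralogs, retrogenes and similar symbols that the rule took in, among them Rps19bp1, which is not a ribosomal protein.

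A ribosome joins a small subunit, which binds the mRNA and reads its codons, to a large subunit, which makes the peptide bond and passes the new chain through an exit tunnel. The flexible stalk of the large subunit recruits the translation factors. The mRNAs of these proteins are among the most abundant of a growing cell, and many open with a run of pyrimidines, the 5′ terminal oligopyrimidine (TOP) tract, through which mTORC1 and the protein LARP1 control their translation and stability. In a germinal center, B cells are selected by T cell help in the light zone and then divide and mutate their antibody genes in the dark zone, and growth on selection is known to involve MYC and mTORC1.

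The series held 1814 wells, each with 1 index-sorted cell of lymph node germinal centers whose RNA was read with SmartSeq2, a full-length method primed on the poly(A) tail and without molecular identifiers. Wells of experiments 1, 3 and 4 were labelled Dec_Positive (Dec+) or Dec_Negative (Dec-), with a time and a zone, the light zone (LZ) or the dark zone (DZ). Experiment 1 gave Dec- cells of the light zone at 12 h, Dec+ cells of the light zone at 12 h, and Dec+ cells of the dark zone labelled 30 h, for which another deposited column says 36 h. In experiments 3 and 4, Dec+ cells of both zones were taken at 12, 30, 46 and 60 h, and in experiment 5, with no time given, Dec+ cells of both zones were labelled WT, KO or TA. The series title names cyclin D3. The labels leave unsaid which change KO and TA carry, what Dec stands for, or which animals the cells came from, so that neither the strain nor the age nor the number of mice behind a group can be given. In experiments 3, 4 and 5 a plate held cells of several conditions side by side, while in experiment 1 plates GC1, GC2 and GC3 held the light zone cells at 12 h and GC4 the dark zone cells, so that there plate cannot be told apart from zone and time. On at least plates A and B of experiment 4 each time had its own rows of wells, in order from 12 to 60 h. On plate C the same held at least for rows A to F, from 12 to 46 h. Time cannot be told apart from row position on these plates. Cells were summed before any test, and in the time course the experiment was the replicate. In the comparisons of zones and of cell cycle phases, times or zones of 1 experiment also served as replicates. All p-values measure the spread between sums, and in those comparisons they do not rest on replication by experiment alone.

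Beside each other, the letters around the annotated 5′ ends show the pyrimidine runs. A run was at least 5 bases of C or T, opening with C, on the strand of the gene, at any place within 15 bases either side of the start. The 30-base windows below are RefSeq's, on GRCm38.p6, with the longest run in capitals, for genes whose values carry the comparisons that follow. The first 6 hold a run.
Rps6: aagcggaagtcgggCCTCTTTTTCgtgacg
Rplp2: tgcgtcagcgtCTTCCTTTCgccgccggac
Rps12: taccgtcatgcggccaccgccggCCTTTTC
Rps18: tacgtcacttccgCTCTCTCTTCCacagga
Rpl35: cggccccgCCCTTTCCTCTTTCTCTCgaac
Rps2: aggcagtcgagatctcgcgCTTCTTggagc
Rplp0: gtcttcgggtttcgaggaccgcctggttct
Rpsa: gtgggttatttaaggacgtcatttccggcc
Rps4x: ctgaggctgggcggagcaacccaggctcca
Rpl24: agaaagctgttgctaggaaacagactgggc
Rpl5: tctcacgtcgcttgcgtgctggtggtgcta
In Rplp0, Rpsa, Rps4x, Rpl24 and Rpl5 no such run lies in the window, which says only that these letters are not there.

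The windows lie at chr4:86857353-86857382 (Rps6, minus strand), chr7:141447636-141447665 (Rplp2, plus strand), chr10:23787195-23787224 (Rps12, minus strand) and chr17:33955651-33955680 (Rps18, minus strand). Those of Rpl35, Rps2 and Rplp0 lie at chr2:39005117-39005146 (minus strand), chr17:24720048-24720077 (plus strand) and chr5:115559452-115559481 (plus strand). The last 4 lie at chr9:120127751-120127780 (Rpsa, plus strand), chrX:102189377-102189406 (Rps4x, minus strand), chr16:55966260-55966289 (Rpl24, plus strand) and chr5:107900513-107900542 (Rpl5, plus strand). Each spans the first bases of a first exon and the bases before it.

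Of the 77 core genes, 57 had a start sequence, and 37 of them (64.9%) held a run, against 40.3% of the 27025 genes of the same table and 43.0% of the 8889 other genes tested in the time course. A run that opened exactly at the annotated start base was found in 13 (22.8%), against 3.01% of all genes and 2.82% of the other tested genes. The matches describe the annotated letters and not the starts used in these cells.

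Ribosomal protein mRNAs took a share of all counts that differed more between experiments than between conditions. It was 3.35, 12.8, 7.79 and 5.17% in experiments 1, 3, 4 and 5. These experiments were sequenced apart, and levels are compared within an experiment only. In the same order, the median depth per cell was 417105, 208013, 292109 and 155485 counts, and 288, 347, 324 and 369 cells were used. All 7 B cell markers, such as Cd79a, were detected in every group (summed level 5658 to 9315 CPM, counts scaled to a common library total), and at least 6 of 7 germinal center markers (1531 to 3630 CPM), while T cell and myeloid markers summed to at most 323 and 37.2 CPM. A plate of experiment 3, plate 5, stood apart, with dark zone shares of 15.6, 15.7, 19.7 and 17.9% at 12, 30, 46 and 60 h against 8.91 to 14.3% on the other 3 plates, and ratios of experiment 3 are given with and without it, as plain ratios of CPM. Without it the light zone of experiment 3 has 9 cells at 46 h, too few for a fit. Cells of experiment 4 at 46 h in the dark zone had a median of 2094.5 detected genes, against 2365 at 12 h and 3654 at 30 h. A share says nothing of the amount of RNA in a cell.

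The single members were far from equal in counts, although most core proteins occur in equal numbers in a ribosome. Between experiments the members shifted unequally. In light zone cells that the authors placed in G1, the normalized level of Rps27 was 31.5, 850 and 181 CPM in experiments 1, 3 and 4. That of Rpl4 was 4418, 3276 and 2564 CPM. Counts therefore need not give the relative mRNA abundance of the members. Over the 15 sums of experiments 3 and 4, Rplp0, the base of the stalk, had the highest level (5431 ± 1213 CPM, SD, n = 15 sums), with 3199 CPM in the lowest sum and 7189 CPM in the highest. It was followed by Rps4x, an X-linked small subunit protein, at 5234 ± 1282 CPM, and Rps3a1 at 3751 ± 713 CPM. Rpl3, which reaches to the peptidyl transferase center, stood at 3617 ± 736 CPM, and Rpl4, which lines the exit tunnel, at 3231 ± 392 CPM. These 5 held 20.3% of all member counts. Next came Rps6, the S6 kinase substrate (3152 ± 927 CPM), and Rpsa (3011 ± 618 CPM). These SDs include the difference between experiments 3 and 4, and so do not measure how firm the order is. Within every sum used for the zone comparison, Rplp0 and Rps4x both stood above Rps3a1. Which of Rplp0 and Rps4x stood higher varied between sums, as it did for Rps6 and Rpsa.

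Of the 77 core genes, 39 lay over 1000 CPM, and only Rps21 lay under 100 CPM. The 16 other symbols held 1.04% of the member counts, and 7 of them lay under 20 CPM. Rpl3l, Rpl39l and Rpl10l were at 0 in experiments 3 and 4. Rpl22, a large subunit protein, stood at 155 ± 49 CPM beside its paralog Rpl22l1 at 206 ± 80 CPM, and the spreads of this pair overlap. Counts of Rps3a1, Rps27, Rpl37, Rpl6, Rps12, Rpl32 and Rps4x are uncertain, because near-identical copies in the table (Rps3a2 and Rps3a3, Rps27rt, Rpl37rt, Rpl6l, Rps12l1, Rpl32l, Rps4l) could take a part of their reads. Symbols with -ps, which the rule leaves out, held counts equal to 3.30 to 5.04% of the member counts.

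Because the reads cover whole transcripts, levels between genes are compared per kb of transcript. On that scale the core members ranged 84.2-fold, from 75.5 CPM per kb (Rpl22) to 6360 CPM per kb (Rplp0), with a median of 1466 and quartiles of 791 and 2349. The median was 1713 CPM per kb over the 31 small subunit genes (213 to 5368), 1123 over the 43 large subunit genes (75.5 to 4433) and 1795 over the 3 stalk genes (1000 to 6360). The order was much the same between experiments, with a rank correlation of 0.948 across the 77 genes between experiments 3 and 4. As levels in CPM, it was 0.938 between experiments 3 and 5, 0.929 between 4 and 5, and 0.941 between 1 and 4. Genes are not independent replicates, and these values are descriptions. The level per kb had a rank correlation of 0.107 with transcript length, and transcripts under 500 bases (13) had a median of 1000 CPM per kb, those of 500 to 700 bases (25) 1424, those of 700 to 1000 bases (25) 2349 and longer ones (14) 1093.

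**Figure D1:**
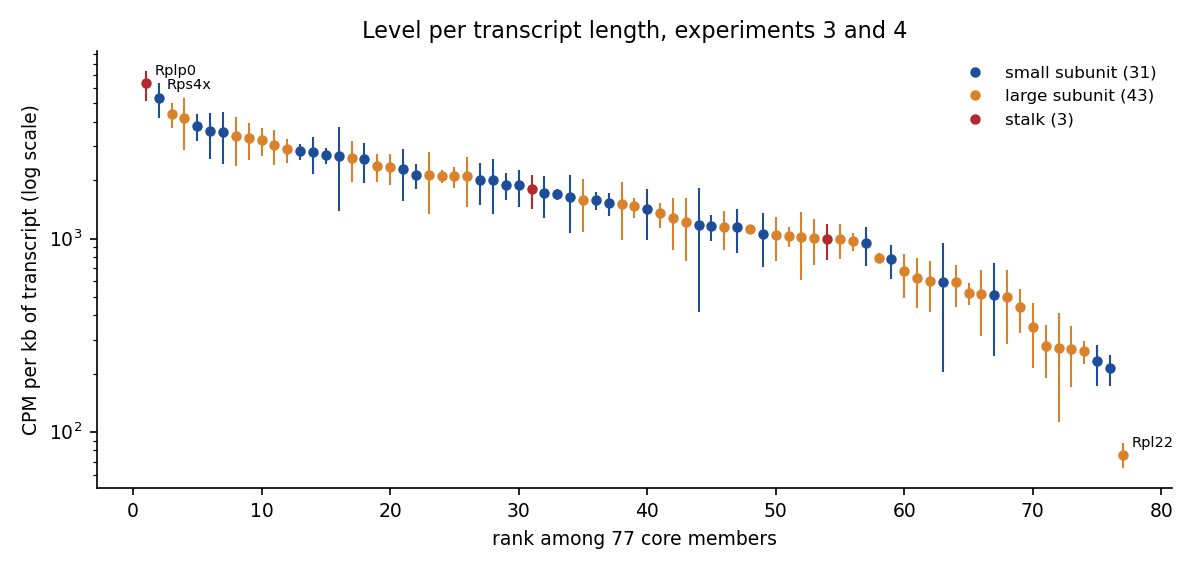
Level of each of the 77 core genes in CPM per kb of transcript (vertical, log scale) by rank (horizontal), as the mean over the 15 sums of experiments 3 and 4, coloured by subunit. Small and large subunit genes are mixed over the whole range from 75.5 to 6360 CPM per kb, and Rplp0 is the highest.

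Which transcripts change while Dec+ cells pass from 12 to 60 h was asked in experiments 3 and 4, with experiment 1 in the same fit. Ribosomal protein mRNAs of the dark zone were at their highest at 46 h. The share of counts in the 93 genes at 12, 30, 46 and 60 h was 11.2, 12.0, 15.01 and 12.5% in experiment 3 (43, 62, 73 and 69 cells), and 6.07, 7.36, 10.6 and 6.96% in experiment 4 (55, 67, 54 and 78 cells). At 46 h the share lay above that at 12 h on 4 of 4 plates of experiment 3, by 2.61 to 4.16 percentage points, and on 3 of 3 plates of experiment 4 with at least 5 cells in both groups, by 4.18 to 4.62 points. By 60 h it lay below that at 46 h on each of these 7 plates, by 0.75 to 3.63 points in experiment 3 and by 3.60 to 4.75 points in experiment 4. Plates of 1 experiment are not independent replicates, and the share gets no test. Plates A and B of experiment 4, and plate C at least up to 46 h, had the same layout of times by row.

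**Figure D2:**
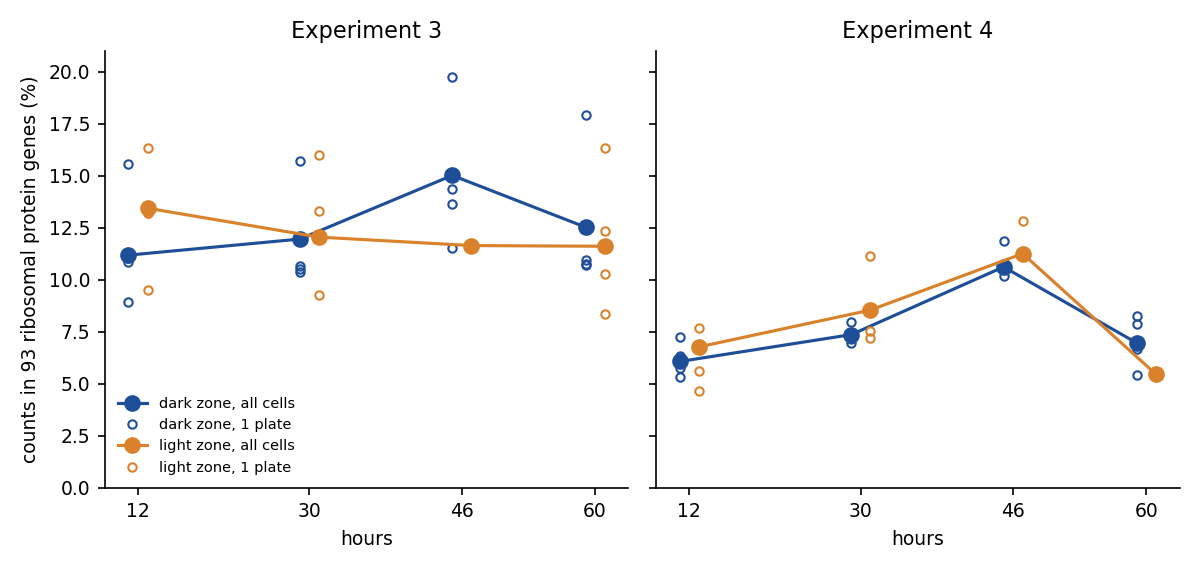
Share of counts in the 93 genes (vertical, %) by hours (horizontal) in experiments 3 and 4, in the dark and the light zone, with all cells of a group as filled points joined by lines and single plates as open circles. The dark zone line peaks at 46 h in both experiments, at 15.01 and 10.6%, and plate 5 of experiment 3 lies above the other plates.

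Gene by gene, the ratio of 46 over 12 h in the dark zone pointed up almost throughout, although the test across all genes called none. The median log2 ratio of the 90 members tested was 0.79 (quartiles 0.67 and 0.94), against -0.01 over all 11662 genes. Among the 90 is Rpl10l, at 0 in experiments 3 and 4, whose fitted ratios in this and the other time comparisons show no measured change. Of the 90, 89 lay above 0, where 49.6% of all genes did, and 88 were higher in both experiments, where 23.9% of all genes were. With edgeR's quasi-likelihood test and Benjamini-Hochberg adjustment over all genes, 0 members and 0% of genes (0 genes) passed an adjusted p of 0.05. At an unadjusted p under 0.05, 57 members were higher and none lower, against 2.61% of all genes that were higher. DESeq2 called 4 members, all higher, and 1.17% of genes. On simulated counts for this comparison, with 10901 genes, edgeR recovered 0 of 50 genes changed 2-fold, 9 of 50 changed 4-fold and 36 of 50 changed 8-fold. These counts had 1 dispersion for all genes, not that of the members. Which changes of members could be called was not tested.

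The stalk proteins Rplp1 and Rplp2, which form the dimers that contact the translation factors, had the highest ratios together with 2 small subunit symbols. In experiment 3, Rplp1 stood at 728, 1036, 1440 and 1164 CPM at 12, 30, 46 and 60 h in the dark zone, and in experiment 4 at 341, 545, 1058 and 556 CPM. Both courses peak at 46 h, and the experiments overlap in level (log2 ratio of 46 over 12 h 1.40 ± 0.37, SE from the fit of all 17 sums). Rplp2 went from 351 to 633 CPM in experiment 3 and from 191 to 536 CPM in experiment 4 (1.3 ± 0.35). These and Rpl10a, the L1 stalk protein (0.82 ± 0.23), and Rpl24 (1.09 ± 0.30), named after its value was seen like Rpl10a, are the 4 members that DESeq2 called. Rps21, a short protein of the small subunit, had 1.40 ± 0.63 with levels of 75.5 and 129 CPM in experiment 3 and 32.1 and 110 CPM in experiment 4. The processed copy Rps12l1 had 1.3 ± 0.52, beside 1.21 ± 0.46 for Rps12, with which it may share reads. Rps12 itself stood at 587, 746, 969 and 739 CPM in experiment 3 and at 222, 335, 641 and 287.7 CPM in experiment 4.

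Low ratios were found both in an abundant member, Rps6, and in members of lower level such as Rpl5 and Rpl7l1. Rps6 stood at 4130, 3558, 4739 and 3924 CPM at the 4 times in experiment 3 and at 2155, 2094, 2614 and 1949 CPM in experiment 4, so that 46 h was again the highest point (0.33 ± 0.20). Rpl5, which with Rpl11 carries the 5S rRNA into the large subunit and binds MDM2, hardly differed: 380, 390, 468 and 420 CPM in experiment 3 and 334, 309, 299 and 293 CPM in experiment 4 (0.16 ± 0.26). Rps15a had 0.38 ± 0.26 and Rpl7l1, a paralog, 0.12 ± 0.45. Of the 5 most abundant genes, Rplp0 had 0.62 ± 0.20, Rpl3 0.48 and Rps4x, Rpl4 and Rps3a1 between 0.40 and 0.42. Rplp0 stood at 5420, 5916, 7114 and 6523 CPM in experiment 3 and at 3199, 4362, 5100 and 4081 CPM in experiment 4.

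By subunit, all 31 small subunit genes lay above 0 (median 0.79, 22 at an unadjusted p under 0.05), as did all 43 large subunit genes (median 0.80, 30 of them) and the 3 stalk genes (median 1.3, all 3). Experiment 4 had the larger ratios, with a median of 1.10 against 0.50 in experiment 3. Without plate 5 the median of experiment 3, as a plain ratio of CPM, was 0.35 in place of 0.47, with 87 in place of 89 of 90 members above 0, and the fit over both experiments without it had a median of 0.74, with 89 of 89 above 0. In the dark zone of experiment 4, cells had a median of 5.13% mitochondrial reads at 46 h and 4.07% at 12 h, beside the lower number of detected genes given above. In experiment 3 the median was 1.43% at 46 h and 1.28% at 12 h, with 3012 and 2257 detected genes. By the cell cycle phase that the authors assigned, 27.4% of dark zone cells at 46 h and 60.5% at 12 h were in G1 in experiment 3. In experiment 4 these were 24.1 and 41.8%. The part of these in the ratios was not tested. Across the 77 core genes, the ratios of experiments 3 and 4 had a rank correlation of 0.209, a description across genes. The ratio over both experiments had a rank correlation of -0.441 with the mean level and -0.214 with transcript length. Core genes with a pyrimidine run near the start had a median of 0.80 (37 genes, 0.33 to 1.40), those without one 0.74 (20 genes, 0.16 to 1.09).

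**Figure D3:**
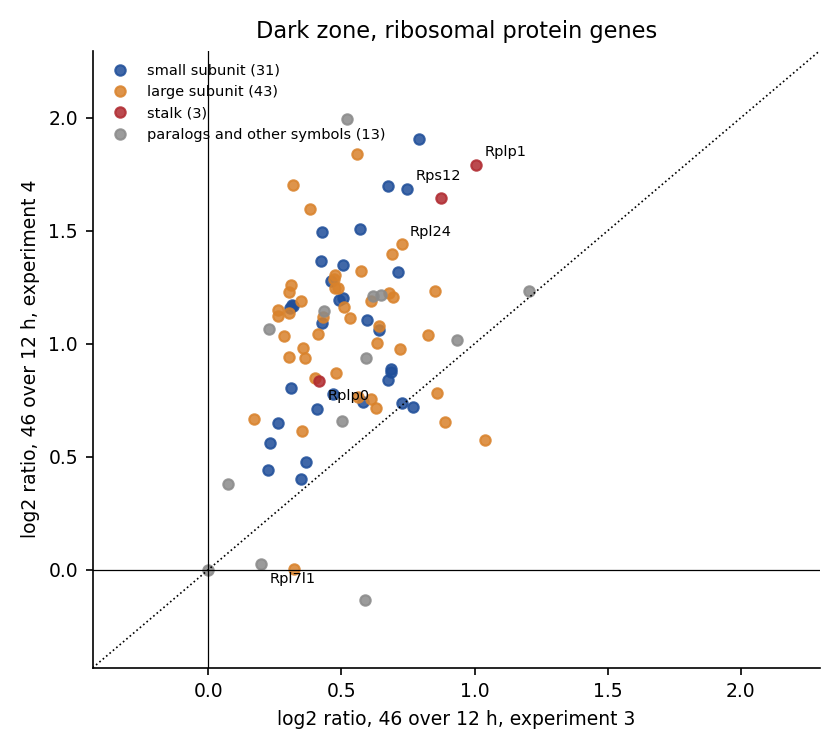
Log2 ratio of 46 over 12 h in the dark zone for each of the 90 members tested, in experiment 3 (horizontal) and experiment 4 (vertical), coloured by subunit. Nearly all points lie right of and above 0, and most lie above the diagonal, since the median was 0.50 in experiment 3 and 1.10 in experiment 4.

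The way to 46 h differed between the experiments. In experiment 4 the member median was 0.14 at 30 over 12 h and 0.92 at 46 over 30 h. In experiment 3 it was 0.28 and 0.21, while as plain ratios of CPM it was 0.16 and 0.31 (0.09 and 0.25 without plate 5), so that the order of the steps there depends on the scaling. At 30 over 12 h the member median was 0.22, against 0.01 over all genes, with 81 of 90 above 0 (50.8% of all genes). edgeR called 0 members and 0% of genes, with 1 member at an unadjusted p under 0.05 (2.19% of genes in either direction), and DESeq2 called 0 members and 0.78% of genes. That member was Rps2, which lies at the mRNA entry channel, with 0.63 ± 0.29. Rps12l1 had 0.70 ± 0.49, Rps27l 0.69 ± 0.44 and Rpl7a 0.66 ± 0.34 at the upper end, and Rps6 (-0.05 ± 0.19), Rps4x (0.04 ± 0.21) and Rpl21 (0.10 ± 0.27) were the lowest of those with 1 sign in both experiments.

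At 46 over 30 h the member median was 0.57, against -0.02 over all genes. Of the 90 members, 88 lay above 0 (48.6% of all genes), and 81 were higher in both experiments (22.1% of all genes). With edgeR, 0 members and 0% of genes passed the adjusted threshold, and 19 members were higher at an unadjusted p under 0.05, against 0.635% of all genes. DESeq2 called 0 members and 0.352% of genes. Rpl37 (1.09 ± 0.44), Rps12 (0.94 ± 0.42), Rps21 (0.89 ± 0.59) and Rps27 (0.87 ± 0.35) had the highest ratios and Rpl5 (0.17 ± 0.25), Rpl4 (0.23 ± 0.20), Rpl3 (0.26 ± 0.23) and Rplp0 (0.34 ± 0.19) the lowest.

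From 46 to 60 h the ratios turned over. The member median of 60 over 46 h was -0.58, against 0.01 over all genes, and 2 of 90 members lay above 0, where 51.7% of all genes did. In both experiments 86 members were lower, against 21.3% of all genes. edgeR called 0 members and 0% of genes. At an unadjusted p under 0.05, 16 members were lower and none higher, against 0.686% of all genes that were lower, and DESeq2 called 0 members and 0.575% of genes. Rps12l1 (-1.10 ± 0.51), Rps21 (-0.89 ± 0.62), Rps12 (-0.87 ± 0.46) and Rpl7a (-0.87 ± 0.35) were lowest, and Rpl7l1 (-0.10 ± 0.45), Rpl5 (-0.19 ± 0.26), Rpl4 (-0.31 ± 0.21) and Rplp0 (-0.33 ± 0.20) nearest to 0. The same sums at 46 h enter this ratio and those above, so that the values share them. Medians were -0.29 in experiment 3 and -0.86 in experiment 4. As a plain ratio of CPM, the median of experiment 3 was -0.26, and -0.23 without plate 5.

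Between 12 and 60 h the differences were small. The median of 60 over 12 h was 0.21, against 0.03 over all genes, with 79 of 90 members above 0 (52% of all genes) and 58 higher in both experiments (23.9% of all genes). As a plain ratio, that of experiment 3 was 0.23, and 0.10 without plate 5, with 63 in place of 82 of 90 above 0. No member was called by edgeR at the adjusted threshold (0% of genes) or at an unadjusted p under 0.05 (1.66% of genes in either direction), and DESeq2 called 0 members and 0.84% of genes. Rpl22l1 (0.78 ± 0.49), Rplp1 (0.68 ± 0.36), Rplp2 (0.67 ± 0.34) and Rpl37a (0.61 ± 0.41) had the highest ratios, and Rps6 (-0.12 ± 0.20), Rpl32 (0.12 ± 0.32), Rpl23a (0.13 ± 0.32) and Rpl19 (0.13 ± 0.26) the lowest.

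In the light zone the experiments did not move together. Shares at 12, 30, 46 and 60 h were 13.4, 12.0, 11.6 and 11.6% in experiment 3 (46, 22, 11 and 21 cells) and 6.77, 8.54, 11.3 and 5.46% in experiment 4 (26, 22, 17 and 5 cells, the last left out of the fit). The ratio of 46 over 12 h had a member median of -0.29 in experiment 3, where 15 of 90 members lay above 0 (34.4% of all genes), and of 1.00 in experiment 4, where 89 did (39.1% of all genes). In the fit over both, the median was 0.43, against -0.30 over all genes, with 87 of 90 above 0 (40.8% of all genes), but only 15 were higher in both experiments (15.5% of all genes). edgeR called 0 members and 0.472% of genes, 10 members were higher at an unadjusted p under 0.05 (2.85% of all genes), and DESeq2 called 1 member, Rplp0, named here also for its level, and 9.05% of genes.

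Among members with 1 sign in both experiments, Rps10 (0.74 ± 0.29, edgeR adjusted p 0.305), Rpl28 (0.72 ± 0.30), Rps15, which reaches to the decoding site (0.66 ± 0.30), and Rpl15 (0.58 ± 0.28) had the highest light zone ratios. Rpl6 (0.28 ± 0.21), Rps3a1 (0.32 ± 0.21), Rps3a2 (0.41 ± 0.38) and Rpl19 (0.43 ± 0.25) had the lowest. Rps10 stood at 1162 and 1323 CPM at 12 and 46 h in experiment 3 and at 672 and 1417 CPM in experiment 4, so that nearly all of its difference lay in experiment 4. At 46 h experiment 3 had 11 light zone cells. As a plain ratio its median of 46 over 12 h was -0.30, and -0.33 without plate 5.

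The difference of the time ratios between the zones (light less dark, 46 over 12 h) had a member median of -0.39, against -0.31 over all genes, with 3 of 90 members above 0 (40.5% of all genes). edgeR called 0 members and 0% of genes, with 0 members at an unadjusted p under 0.05 (6.89% of genes in either direction), and DESeq2 called 0 members and 3.64% of genes. At 30 over 12 h in the light zone the member median was 0.09, against -0.10 over all genes, with 62 of 90 above 0 (45.4% of all genes). edgeR called 0 members and 0% of genes, 0 members at an unadjusted p under 0.05 (3.45% of genes in either direction), and DESeq2 0 members and 1.01% of genes. Rpl18 (0.45 ± 0.37), Rpl21 (0.43 ± 0.27), Rpl10 (0.30 ± 0.25) and Rpl23 (0.30 ± 0.31) were highest there. Lowest were Rps19bp1 (-1.42 ± 0.80), Rpl7l1 (-0.41 ± 0.43), Rpl36 (-0.31 ± 0.46) and Rpl27 (-0.25 ± 0.34). The plain median of experiment 3 was -0.17, and -0.20 without plate 5.

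No member differed between the zones by the test. Over 7 pairs of sums the median of dark over light zone was -0.03 (quartiles -0.08 and 0.02), while that over all 9302 genes was 0.20. Of 89 members tested, 31 lay above 0, against 64.8% of all genes. edgeR called 0 members and 0.323% of genes, with 0 members at an unadjusted p under 0.05 (9.4% of genes in either direction), and DESeq2 called 0 members and 5.07% of genes. The ratios of single members ran from -0.25 (Rpl18) to 0.26 (Rps19bp1). Rplp0 alone among the 89 was lower in the dark zone in 7 of 7 pairs, by -0.18 to -0.00 (-0.09 ± 0.07, edgeR adjusted p 0.754), and 1 of 89 is no more than the 1.45% of all genes lower in every pair. Without plate 5, and so without experiment 3 at 46 h, the median was -0.14, against 0.14 over all genes, with 6 of 89 above 0 and 0 called. On simulated counts for this comparison, with 10062 genes, 12 of 50 genes changed 2-fold and 50 of 50 changed 4-fold were recovered. These counts too had 1 dispersion for all genes, not that of the members.

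The zone ratio differed between pairs. In experiment 3 the member medians at 12, 30, 46 and 60 h were -0.33, -0.03, 0.42 and 0.18, with 5 of 89 above 0 at 12 h (48.6% of all genes) and 84 at 46 h (59.7% of all genes). In experiment 4 they were -0.18, -0.23 and -0.10 at 12, 30 and 46 h, with 19, 7 and 26 of 89 above 0 (52.5, 52.8 and 55.7% of all genes), so that at 46 h the experiments lay on either side of 0. At 12 h in experiment 3 the dark zone share lay below that of the light zone on each of 4 plates, while in experiment 4 it lay above on 2 of 3 plates (-0.46 to 0.63 points). Without plate 5 the plain medians of experiment 3 were -0.30, -0.05, 0.37 and 0.16, in place of -0.33, -0.01, 0.41 and 0.20.

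The deposited tables assign each cell a Phase (G1, S or G2M) from its scores for S phase and G2M genes, and sums per experiment, zone and Phase were compared next. Of 89 members, only Rps12 passed the test in S over G1, no more than the 5.96% of all genes that did. Over all pairs together most members lay lower in G2M than in S without passing it, while in the light zone of experiment 4 most lay higher. Shares in G1, S and G2M were 12.1, 14.0 and 12.6% in the dark zone of experiment 3 and 12.3, 13.6 and 11.1% in its light zone, 7.42, 7.88 and 7.55% and 8.06, 8.32 and 8.58% in experiment 4, and 3.87, 3.25 and 2.56% in the light zone of experiment 1. Highest in S in 3 of the 4 groups of experiments 3 and 4, the share was highest in G1 in experiment 1, whose dark zone had 4 cells in G1 and 3.09 and 3.08% in S and G2M.

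**Figure D4:**
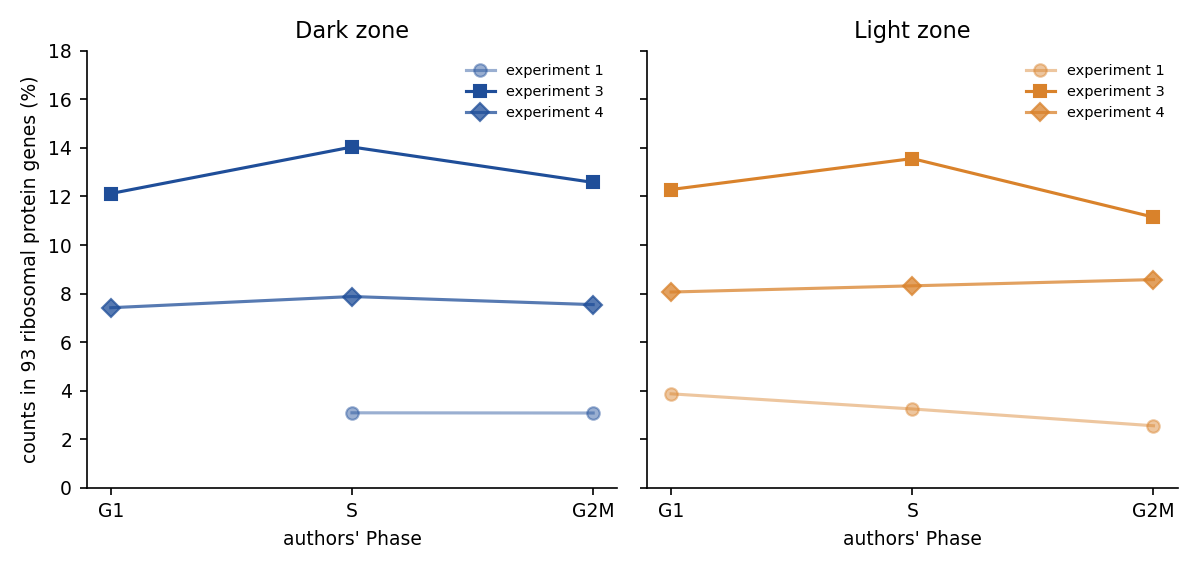
Share of counts in the 93 genes (vertical, %) by the authors' Phase (horizontal) in the dark and the light zone, one line per experiment. Lines differ far more in height, from about 3% in experiment 1 to over 11% in experiment 3, than along the phases.

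For S over G1, the median of the 89 members tested was 0.01, against 0.02 over all 10204 genes, with 46 above 0 (50.9% of all genes), 6 higher in all 5 pairs (10.5% of all genes) and 3 lower in all 5 (9.16%). Medians per pair were 0.11 to 0.18 in the 4 pairs of experiments 3 and 4 and -0.39 in the light zone of experiment 1, where 10 of 89 members lay above 0 (49.6% of all genes). Without plate 5 the plain medians of experiment 3 were 0.12 in place of 0.23 in the dark and 0.10 in place of 0.19 in the light zone. edgeR called 1 member and 5.96% of genes, with 6 members at an unadjusted p under 0.05, 4 of them higher (17.4% of genes in either direction). DESeq2 called 2 members, Rps2 and Rps12, and 11.7% of genes. Simulated counts for this comparison, with 10608 genes, gave 5 of 50 genes changed 2-fold and 42 of 50 changed 4-fold. They had 1 dispersion for all genes, not that of the members, and do not show which member changes could be called.

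Rps12, a protein of the small subunit head, was called higher in S in the main fit, with a log2 ratio of 0.62 ± 0.17 (edgeR adjusted p 0.0395). Its normalized level in G1 and S was 619 and 870 CPM in the dark zone and 602 and 774 CPM in the light zone of experiment 3, 240 and 383 CPM and 320 and 410 CPM in experiment 4, and 41.7 and 82.7 CPM in the light zone of experiment 1. S was higher in 5 of 5 pairs, by 0.36 to 0.97. The call depended on the settings: without experiment 3 or experiment 4 the adjusted p was 0.27 and 0.31, without plate 5 of experiment 3 it was 0.10, with no filter on low counts 0.052, and over the alternatives run it ranged from 0.00809 to 0.978. Its copy Rps12l1, which may share reads, had 0.50 ± 0.25.

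Without experiment 1, edgeR called 9 members in S over G1, all higher (5.61% of all genes were called higher in that fit), among them Rps2 (0.72 ± 0.09, edgeR adjusted p 0.00107), Rpl7a (0.61), Rpl14 (0.58), Rplp1 (0.51), Rps12 (0.49), Rplp2 (0.47), Rps18 (0.42) and Rpsa (0.32). In the same fit 4 members were called in G2M over G1, all higher (5.01% of all genes), among them Rps2 (0.50), Rpsa (0.33) and Rplp0 (0.22). Normalized levels of Rps2 in G1 and S were 2444 and 3948 CPM and 2717 and 3994 CPM in the 2 zones of experiment 3, 1339 and 2381 CPM and 1827 and 3000 CPM in experiment 4, but 1823 and 1728 CPM in experiment 1. Experiment 1 was sequenced on another instrument, had a median of 11.2% mitochondrial reads per cell against 1.40 and 4.07% in experiments 3 and 4, and gave its light zone cells at 12 h only. The part of these in the difference was not tested. Rpl39 (0.32 ± 0.16) and Rpl18 (0.18 ± 0.15) were the next highest members in all 5 pairs, and Rpl13a (-0.34 ± 0.15) and Rpl21 (-0.09 ± 0.12) were among the 3 that were lower in all 5.

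For G2M over G1 the member median was -0.12, against -0.02 over all genes, with 21 of 89 above 0 (48.6% of all genes). edgeR called 0 members and 5.31% of genes, with 6 members at an unadjusted p under 0.05, 2 of them higher (16.3% of genes in either direction), and DESeq2 called 0 members and 10.8% of genes. Lower in all 5 pairs were 4 members, a smaller share than the 8.09% of all genes, namely Rps27 (-0.64 ± 0.24), Rpl13a (-0.39 ± 0.15), Rps9 (-0.31 ± 0.15) and Rps7 (-0.27 ± 0.14). The light zone of experiment 1 had a median of -0.72, with 5 of 89 members above 0 (44.1% of all genes), while the other 4 pairs lay between -0.14 and 0.20. Without plate 5 the plain medians of experiment 3 were -0.05 in place of 0.04 in the dark and -0.29 in place of -0.18 in the light zone. For G2M over S the median was -0.17, against -0.04 over all genes, with 14 of 89 above 0 (47.2% of all genes) and 12 lower in all 6 pairs (3.62% of all genes). Pair medians ran from -0.39 in the light zone of experiment 3 to 0.09 in the light zone of experiment 4. In the latter, 59 of 89 members lay above 0 (47.5% of all genes). edgeR called 0 members and 0.235% of genes, 7 members were lower at an unadjusted p under 0.05 (3.4% of all genes), and DESeq2 called 0 members and 2.22% of genes. The lowest were Rpl36a (-0.38 ± 0.18), Rpl27 (-0.37 ± 0.16), Rplp2 (-0.36 ± 0.17) and Rps29 (-0.32 ± 0.21). The plain medians of experiment 3 were -0.17 and -0.44 in the dark and light zone, and -0.14 and -0.39 without plate 5.

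Genes tied to the members by function were taken from lists fixed with the members. Among the 3 ribosome constituents named otherwise are Fau, a ubiquitin-like fusion to a small subunit protein, and Rack1, a scaffold on the small subunit. At 46 over 12 h in the dark zone Fau had 0.42 ± 0.29 and Rack1 0.82 ± 0.36. All 3 of 3 lay above 0, and none passed the edgeR threshold. Of 16 other mRNAs known or held to carry a TOP tract, 15 lay above 0 with a median of 0.44, and none passed. Among these were Npm1, a nucleolar chaperone of ribosome assembly (0.81 ± 0.29), Eef1a1, which delivers tRNAs (0.48 ± 0.25), and Eef2, the translocase (0.00 ± 0.26). Of 16 regulators of these mRNAs, such as Mtor and Larp1, 5 lay above 0 with a median of -0.16, and none passed. At 60 over 46 h the medians of the 3 lists were -0.56, -0.33 and -0.07.

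Between phases, single genes of these lists moved apart from the members. Npm1 rose in S over G1 (0.86 ± 0.13, edgeR adjusted p 0.000851) and in G2M over G1 (0.57 ± 0.13, edgeR adjusted p 0.0139). Fau fell in both, with log2 ratios of -0.54 ± 0.14 (edgeR adjusted p 0.0377) and -0.59 ± 0.14 (edgeR adjusted p 0.0257). Eif3e, a subunit of an initiation factor, fell in G2M over G1 (-0.51 ± 0.14, edgeR adjusted p 0.0459), and Eif4e, the cap-binding factor, rose (0.75 ± 0.21, edgeR adjusted p 0.0490). Without plate 5 of experiment 3 both missed the threshold (edgeR adjusted p 0.073 and 0.074). Besides these, the regulator Mlst8 was called lower in the light zone at 46 over 12 h, from counts near 0.

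Dec+ and Dec- cells of the light zone at 12 h were set against each other in experiment 1, the one experiment with both, so that there is no test. Their shares were 3.40% (166 cells) and 3.35% (80 cells). Of the members, 72 reached 20 CPM in Dec+ or Dec- cells, and their median log2 ratio of CPM (with a pseudocount of 1 CPM) was 0.06, against 0.07 over all such genes, with 41 above 0 (53.3% of all genes). More than 1.5-fold higher in Dec+ cells were 10 members (29.2% of all genes), and 1 was more than 1.5-fold lower (23.6%). The medians on the 3 plates ran from -0.07 to 0.47, and without plate GC2 the median was -0.15. Rpl37 (1.70), Rpl7l1 (1.35) and Rpl5 (1.14) had the highest ratios of those with 1 sign on every plate, with Rpl5 at 97.3 CPM in Dec+ and 43.6 CPM in Dec- cells, and Rps15a (-0.46), Rpl13a (-0.25) and Rps10 (-0.18) the lowest. Rps2, which the naming rule did not take here, stood at 1549 CPM in Dec+ and 959 CPM in Dec- cells and was higher on 3 of 3 plates. In all, 14 of the 72 members were higher on every plate, no more than the 20.7% of all genes.

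Experiment 5 held the 3 genotypes. Ccnd3, which the plates of this experiment are named for, stood at 89.3 and 78.6 CPM in KO cells of the dark and the light zone, at 477 and 350 CPM in WT and at 287 and 119 CPM in TA, lowest in KO in both zones. With 1 experiment there is no test, and the 4 plates, on which the genotypes stood side by side, show only the spread within it.

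Ribosomal protein mRNAs took a larger share in KO cells than in WT cells in both zones. In the dark zone the share was 7.01% in KO (62 cells), 4.85% in WT (82 cells) and 4.16% in TA (101 cells), and in the light zone 6.33% (61 cells), 4.41% (41 cells) and 4.84% (22 cells). On plates 1 to 4 the dark zone shares were 6.57, 5.96, 8.46 and 6.50% in KO, 5.10, 4.49, 5.55 and 4.33% in WT, and 3.38, 3.75, 5.01 and 4.53% in TA. KO lay above WT on 4 of 4 plates in the dark zone, by 1.47 to 2.92 points, and on 4 of 4 in the light zone, by 0.936 to 2.48 points. In the dark zone no KO plate overlapped the WT plates. TA lay above WT on 1 of 4 dark zone plates and on 2 of 3 light zone plates.

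**Figure D5:**
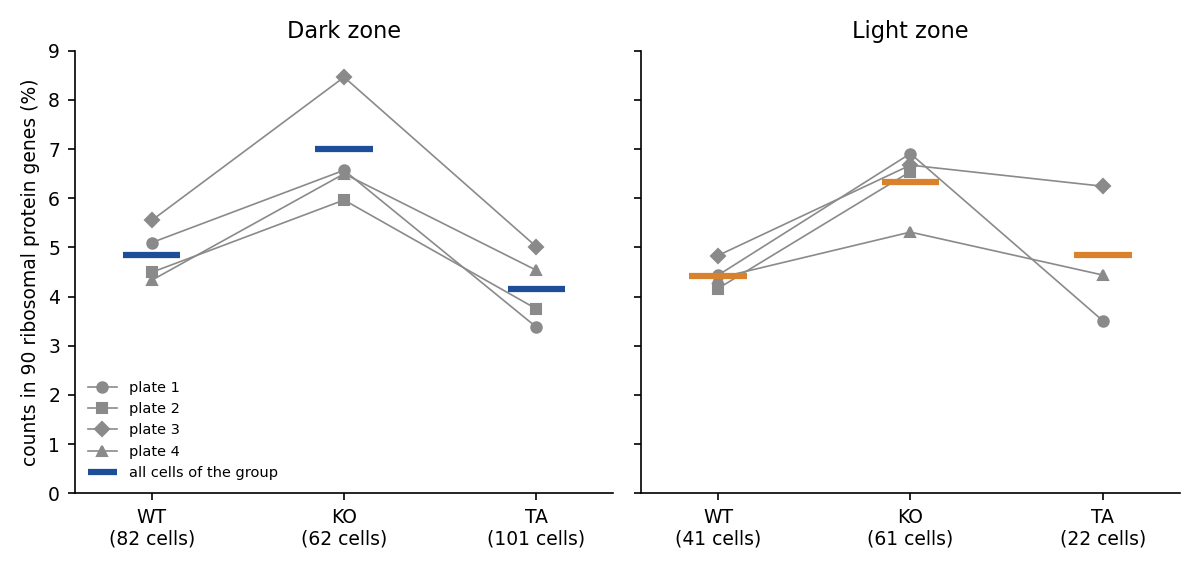
Share of counts in the 90 genes of experiment 5 (vertical, %) by genotype (horizontal) in the dark and the light zone. Grey lines join the values of 1 plate with at least 5 cells in each group, and bars show all cells of a group. KO lies above WT on every plate in both zones, while TA lies on either side of WT.

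In the dark zone the median log2 ratio of KO over WT was 0.67 over the 83 members at 20 CPM or more, against -0.16 over all such genes, and 0.48 to 0.75 on the 4 plates. Of the 83, 81 lay above 0 (42.6% of all genes), 50 were more than 1.5-fold higher (20.5%) and 0 more than 1.5-fold lower (29.6%), and 59 were higher on every plate (7.14%). All 31 small subunit genes lay above 0 (median 0.69), as did 42 of 43 large subunit genes (0.64) and the 3 stalk genes (0.71). Rpl39, which lines the exit tunnel, stood at 1050 CPM in KO and 467 CPM in WT (1.17), and Rplp1 at 392 and 177 CPM (1.14). Per plate, Rplp1 was at 350, 417, 369 and 433 CPM in KO and at 159, 164, 143 and 244 CPM in WT, with no overlap. The retrogene Rps27rt had 1.26. Rplp0 stood at 3001 and 1947 CPM (0.62), Rpsa at 1650 and 1087 CPM (0.60) and Rps6 at 2602 and 2036 CPM (0.35). Rpl5 was the exception among the core genes, at 365 and 425 CPM (-0.22) and lower in KO on 4 of 4 plates, and Rpl9 (0.29) and Rpl6 (0.33) had the next lowest ratios with 1 sign on every plate.

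In the light zone the median of KO over WT was 0.62 over 82 members, against -0.05 over all genes, and 0.33 to 0.71 on the plates. Of the 82, 79 lay above 0 (48% of all genes), 45 were more than 1.5-fold higher (27.7%), 1 was more than 1.5-fold lower (28.4%), and 57 were higher on every plate (11%). Rpl35, at the exit tunnel, stood at 136 CPM in KO and 51.7 CPM in WT (1.38), Rpl24 at 446 and 208 CPM (1.10) and Rps19, the gene most often mutated in Diamond-Blackfan anemia, at 789 and 384 CPM (1.04). Rpl10 (0.23), Rps16 (0.28) and Rpl27a (0.39) had the lowest ratios with 1 sign on every plate, and Rpl5 again lay below 0 (-0.38), on 2 of 4 plates.

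Other values moved with the KO label. The median of mitochondrial reads per cell was 10.8 and 10.4% in KO cells of the dark and light zone, 6.93 and 6.52% in WT and 5.94 and 5.43% in TA. By the authors' Phase, 48 of 62 dark zone and 45 of 61 light zone KO cells were in G1, against 38 of 82 and 15 of 41 WT cells. Plasma cell markers summed to 5585 and 3448 CPM in KO, 2566 and 1459 CPM in WT and 2015 and 1267 CPM in TA. Of the 6 markers the table of experiment 5 lists 5, without Tnfrsf17, and all 5 were detected in KO cells of the dark zone, while Prdm1 was at 0 in WT and TA cells of both zones. T cell markers summed to 323 CPM in KO and 108 CPM in WT of the dark zone, and to 169 and 232 CPM in the light zone. Among G1 cells alone the shares were 7.07% in KO, 4.78% in WT and 3.92% in TA of the dark zone, and 6.24, 5.05 and 5.36% in the light zone, with medians of KO over WT of 0.77 and 0.43. In G1, KO lay above WT on 4 of 4 dark zone plates but on 3 of 4 light zone plates, with 5.32% in KO and 5.87% in WT on plate 4, where WT had 4 such cells. The part of mitochondrial reads and of plasma cell markers in the difference was not tested.

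TA over WT was closer to even. In the dark zone the median was -0.21 over 82 members, against -0.03 over all genes, with 11 above 0 (48.1% of all genes), 1 more than 1.5-fold higher (17.9%) and 2 more than 1.5-fold lower (19.9%), and plate medians ran from -0.63 to 0.06. Rps18 stood at 167 CPM in TA and 282 CPM in WT (-0.75), Rpl36 at 16.1 and 24.9 CPM (-0.59) and Rps2 at 777 and 1148 CPM (-0.56), each lower on 4 of 4 plates. In the light zone, with 22 TA cells, the median was 0.19 over 83 members, against -0.03 over all genes, with 58 above 0 (48.8% of all genes), 7 more than 1.5-fold higher (29%) and 2 more than 1.5-fold lower (32.3%). Rpl38 (0.95), Rpl27 (0.63) and Rpl13 (0.49) were highest there and Rpsa (-0.44), Rps18 (-0.42) and Rpl10 (-0.21) lowest.

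TA and KO differed most in the dark zone. The median of TA over KO was -0.86 over 83 members, against 0.10 over all genes, with 65 more than 1.5-fold lower (23.9% of all genes) and 65 lower on every plate (9.76%). Rplp1 (-1.58), Rps18 (-1.58) and Rpl36 (-1.57) had the lowest ratios, and Rpl21 (-0.46), Rps6 (-0.51) and Rps3a1 (-0.51) those nearest to 0. In the light zone the median was -0.44, against 0.01 over all genes, with 30 more than 1.5-fold lower (33.8% of all genes) and 30 lower on every plate (19.4%). The 3 ratios between genotypes share their groups, and none is independent of the others.

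Lists of functional partners showed smaller ratios in KO than the members. In the dark zone the ribosome constituents named otherwise had a median of 0.48 (3 of 3 above 0), the TOP mRNAs 0.16 (11 of 16) and the regulators -0.05 (5 of 11 at 20 CPM or more). Light zone medians were 0.49 (3 of 3), 0.15 (11 of 16) and -0.51 (6 of 15). Core genes with a pyrimidine run near the start had a dark zone median of 0.70 (37 genes) and those without one 0.64 (20 genes). Across the 77 core genes the dark zone ratio of KO over WT had a rank correlation of -0.502 with the level, -0.472 with transcript length and 0.314 with the dark zone ratio of 46 over 12 h, which comes from other experiments and shares the level and length of the genes.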

How the data were processed

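The authors deposited expected counts per gene and cell, estimated and not normalized, in combined tables of 965 cells (experiments 1, 3 and 4) and 373 cells (experiment 5). The submitters' processing notes name mm10, Seurat 3.1.4, RSEM 1.3.1 and STAR 2.6, with no roles given. Cell tables deposited by the authors give the percent of mitochondrial reads, each cell's score for the S and G2M phases, its forward scatter intensity at the sort, and other annotations (the Phase and flags for each zone). Counts of the members in the combined tables equalled those in the deposited tables per plate.

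Dec+ cells with a zone, without the wells labelled PB, were summed per experiment, time and zone (17 sums of at least 10 cells in the time course, 14 in the zone comparison), or per experiment, zone and Phase (17 sums), and rounded. Genes were kept by filterByExpr, which left out Rpl32l, Rpl3l and Rpl39l in each fit and Rpl10l in the zone and Phase fits, and library sizes were scaled by TMM. Tests used edgeR 4.0.16 (quasi-likelihood F-test, in R 4.3.3 with limma 3.58.1), with p-values adjusted by Benjamini-Hochberg over all genes and a threshold of 0.05. The block was the experiment in the time course, experiment and time in the zone fit, and experiment and zone in the Phase fit. The 7 zone pairs come from experiments 3 and 4 alone. Residual degrees of freedom were 7, 6 and 9. A log2 ratio is given ± SE, taken as the size of the ratio divided by the square root of the F value of its test. Scripts were tested on simulated data with a dispersion of 0.2.

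The experiments pair the sums, since the labels name them as sequencing batches. Sums that share an experiment deviated from their group means together, with correlations across genes from 0.0813 to 0.254 in 42 pairs (median 0.166). Dec status and genotype had 1 experiment each, and log2 ratios of CPM with a pseudocount of 1 CPM are given without a test. Counting error is small beside the spread between plates: exact 95% Poisson intervals and binomial intervals were computed, and they cover counting error only.

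Members and lists were chosen with earlier results of these data known. Named genes are the 5 with the highest mean CPM and, in each comparison, the 4 highest and 4 lowest ratios (3 without a test) at 20 CPM or more with 1 sign in every pair or plate. In the zone comparison fewer than 4 members qualified, and G2M over G1 had 4, all lower. Some genes that this rule or a list took are not reported here. Alternatives were DESeq2 1.42.0 as test or for size factors, no filter, no block, scaling by other genes, sums of 20 cells, equal weight of cells, cells of 20000 counts or more, cells marked for 1 zone, and each experiment or plate left out, with plate 5 of experiment 3 added after seeing the data. Of the combined table, 255 columns could not be assigned to a sample, those of experiment 2, and were not used here.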

Additional observations from a re-analysis of the deposited data

Results flagged for a closer look

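In 173 groups of 4 to 10 values, 15 held a value far from the others, where chance gives about 5%. On plate 5 of experiment 3, members took 15.7% of dark zone counts at 30 h (10.4 to 10.6% on the other plates) and 17.9% at 60 h (10.7 to 10.9%).

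The light zone of experiment 1 stood apart in the phases. Its median of S over G1 was -0.39 (0.11 to 0.18 in the other pairs), with Rpl13a at -0.91 (-0.25 to -0.12). In G2M over G1 it had Rps7 at -0.96 (-0.27 to -0.05), Rps9 at -1.21 (-0.23 to -0.01) and Rpl13a at -1.22 (-0.25 to -0.07). Rpl7a in G2M over S was at -0.57 in the light zone of experiment 3 (-0.16 to -0.00 elsewhere).

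In experiment 5, a plate stood apart for Rpl19 in TA of the dark zone (493.1 CPM on plate 1, 792 to 840 on the others), Rpl21 in KO of the dark zone (1278 CPM on plate 3, 827 to 883), Rpl24 in WT of the dark zone (205 CPM on plate 2, 260 to 262) and Rpl27 in TA of the dark zone (46.1 CPM on plate 1, 84.3 to 89.0). The same held for Rpl9 in KO of the light zone (1012 CPM on plate 4, 1423 to 1457), Rps14 in KO of the dark zone (412 CPM on plate 1, 663 to 709) and Rps16 in WT of the dark zone (420 CPM on plate 3, 355 to 361).

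The zones of experiment 3 moved in opposite directions from 12 to 46 h. The member median was -0.29 in the light and 0.50 in the dark zone, a difference of -0.79. This difference within experiment 3 was not tested, and the test over both experiments called 0 members.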

How the results depend on the processing

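In the comparisons tested across all genes, edgeR, and limma with cells weighted equally, called 0 members under every setting that could be run, except in S over G1, in G2M over G1, and in the light zone at 46 over 12 h without plate 5 of experiment 3, an alternative added after seeing the data (1 member, Rps14, 1.29, edgeR adjusted p 0.0450, with 1.32% of genes, resting on experiment 4). DESeq2 called 4 members at 46 over 12 h in the dark zone and 1 in the light zone. In S over G1, where 1 member was called, there were 0 with no filter (3.56% of genes), 0 without plate 5 (5.3%), 2 by DESeq2 (11.7%), 4 with each cell weighted equally (Rpsa, Rps2 and Rps12 higher, Rpl13a lower, with 9.87% of genes), and 0 to 9 when an experiment was left out (0.834, 1.24 and 7.95% of genes without experiments 3, 4 and 1). In G2M over G1, with 0 called, there were 4 with equal weight (among them Rps7 and Rpl13a lower, Rpl7l1 higher, with 9.15% of genes), and 0 to 4 without an experiment, the 4 being without experiment 1 (6.77% of genes). Leaving out an experiment gave 0 to 0 in the other comparisons. Without the replicate block, S over G1 had 0 members called, Rps12 had 0.22, and no other count of members called changed.

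The member median of 46 over 12 h in the dark zone ranged from 0.49 to 1.14 over 13 settings, that of 60 over 46 h from -0.89 to -0.28, and that of 46 over 12 h in the light zone from -0.25 to 1.06 over 12. The median of KO over WT in the dark zone was 0.51 with equal weight of cells (0.57 to 0.68 without a plate), and in the light zone 0.43 in G1 cells, an alternative added after seeing the data (0.50 to 0.69 without a plate). Without a plate, TA over WT ranged from -0.29 to -0.11 in the dark and from 0.07 to 0.23 in the light zone, TA over KO from -0.999 to -0.77 and from -0.56 to -0.34, and Dec+ over Dec- from -0.15 to 0.21. The share of experiment 1, as a mean over its 3 groups, was 3.27% from summed counts and 2.56% from the medians over cells.

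Ratios of single genes named here changed sign 13 times. At 30 over 12 h in the dark zone, Rps6 was -0.085 to 0.023 without an experiment (0.023 without experiment 3) and 0.0080 without cells marked for both zones, and without the block Rps4x was -0.20 and Rpl21 -0.46. With equal weight of cells, Rpl7l1 was -0.068 at 46 over 12 h and 0.053 at 60 over 46 h, and Rpl5 0.022 at 60 over 46 h. In the light zone, Rpl7l1 was -0.92 to 0.17 at 30 over 12 h without an experiment (0.17 without experiment 3), Rpl36 0.19 and Rpl27 0.28 there without the block, Rpl36 0.090 there without plate 5, and Rpl19 -0.012 to 0.88 at 46 over 12 h without an experiment (-0.012 without experiment 4). Rpl11 in S over G1 was -0.080 without the block. The causes were not tested. Sums of at least 20 cells left no light zone value at 46 over 12 h.

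The time course rests on 2 experiments. The light zone at 46 h has 11 and 17 cells.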
